A study of Caenorhabditis elegans with 2 samples.

Results

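The autosomal peaks of the zinc finger protein ZTF-26 in one-directional promoters numbered 305 of the 1929 peaks in the authors' optimal list for Caenorhabditis elegans (15.8%). They were chosen from that list by position. The summit of such a peak lay in intergenic sequence of an autosome, more than 100 bp from any tRNA gene, and inside the promoter windows of protein-coding genes of a single strand. The promoter window of a gene reached from 1000 bp before to 500 bp past each transcript's annotated 5' end (WBcel235, Ensembl release 115). Signal entered the choice only through the optimal list, which all optimal classes share. Signal, replicate support and sequence could therefore be compared with other classes of optimal peak.

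The worms were of the strain OP565, genotype unc-119(tm4063) III; wgIs565, in which a stably carried transgene makes ZTF-26 with GFP and FLAG at its C terminus, and the fusion protein was precipitated with an anti-GFP antibody. Mixed-sex young adults were taken 56 hours after their synchronization as L1 larvae starved after bleaching, in 2 biological replicates, numbers 3 and 4, that form 1 group. Whole animals were used, so the cell types that carry a peak cannot be told apart, and the labels do not say what drives the transgene. The control library was not analysed here, the data are peak lists without read counts, and the depth of the libraries is therefore unknown.

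ZTF-26 belongs to a set of worm proteins named as putative zinc finger transcription factors, which bind DNA through loops folded around a zinc ion. In the compact C. elegans genome the control regions of a gene often lie in the short stretch before it. Where neighbouring genes point away from each other they can share that stretch, and where they follow each other on one strand it lies before only the downstream gene. Many worm transcripts also lose their original start when a spliced leader RNA is joined on, so an annotated 5' end often marks the join and not the place where transcription began.

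The comparison classes came from the same lists. Divergent promoter peaks (135) met the same rule but lay in windows of genes of both strands. Distal intergenic peaks (289) were autosomal and intergenic, away from tRNA genes, and in no promoter window. Lower-ranked candidates (2354) met the position rule for one-directional promoters but lay in the pooled list below the optimal list, which held the pooled peaks of highest signal. Beside these, 75227 windows tiled across all sequence that met the rule gave the background for sequence words.

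A set of 4 word groups was followed in a window of 50 bp on each side of the summit, on both strands. Group A is any of ACGCAGA, the word CTGCGTC and the word GAGACGC, which overlap as pieces of TCTGCGTCTC or its reverse complement. Group B is the repeat CTCTCTC. Group C is CACGTG, the core of the E-box bound by helix-loop-helix proteins. Group D is CGCCAGC. All were read off an earlier report on these data and are no independent choice. The windows below, from the RefSeq genome WBcel235 (ce11) and written 5' to 3' on the strand of the gene, are wholly intergenic and belong to the strongest members with each group and with none of them, outside a chromosome whose sequence is not shown. The eelo-2 window also holds group A (tctgcgtc). The the capitals mark the word or its reverse complement (GCTGGCG in his-37).
H41C03.3, group A, chrII:5844760-5844860, plus strand: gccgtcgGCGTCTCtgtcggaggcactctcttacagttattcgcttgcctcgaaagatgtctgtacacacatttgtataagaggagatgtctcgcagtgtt
hsp-1, group B, chrIV:17278512-17278612, plus strand: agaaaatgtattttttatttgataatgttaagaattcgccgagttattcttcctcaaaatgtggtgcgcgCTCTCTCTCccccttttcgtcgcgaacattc
Y54G11A.2, group B, chrII:14251546-14251646, plus strand: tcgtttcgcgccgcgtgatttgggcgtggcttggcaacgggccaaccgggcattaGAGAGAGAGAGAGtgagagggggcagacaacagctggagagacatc
F08F3.4, group C, chrV:5410802-5410902, plus strand: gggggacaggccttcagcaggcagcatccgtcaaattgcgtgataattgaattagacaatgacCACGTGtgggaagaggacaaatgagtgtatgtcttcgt
adh-1, group C, chrV:11888094-11888194, plus strand: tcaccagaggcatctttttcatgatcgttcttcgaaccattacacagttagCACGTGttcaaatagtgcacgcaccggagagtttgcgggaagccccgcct
his-37, group D, chrV:9546971-9547071, plus strand: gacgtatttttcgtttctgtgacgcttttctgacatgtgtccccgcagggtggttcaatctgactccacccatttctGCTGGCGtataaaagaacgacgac
eelo-2, group D, chrIV:17249818-17249918, plus strand: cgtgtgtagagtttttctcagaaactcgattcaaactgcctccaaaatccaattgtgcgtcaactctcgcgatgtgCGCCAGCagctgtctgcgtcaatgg
rpl-3, none, chrIII:3867507-3867607, plus strand: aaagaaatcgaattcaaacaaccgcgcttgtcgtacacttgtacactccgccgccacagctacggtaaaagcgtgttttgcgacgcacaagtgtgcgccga
tos-1, none, chrV:9344260-9344360, minus strand: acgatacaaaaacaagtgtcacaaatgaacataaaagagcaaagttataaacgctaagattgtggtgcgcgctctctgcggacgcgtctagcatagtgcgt

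For group D, 9 stretches of 25 bases are shown on the strand that reads CGCCAGC, with the word in capitals, because the bases beside it also recurred. They are a selection from 27 sites and not the strongest ones, since some sites of stronger peaks than the last are not shown. The recurrence is counted over all 27 sites further below. The order is that of peak signal, and C34C12.8 had 2 sites in 1 window.
his-37, chrV:9547039-9547063, minus strand: tcttttataCGCCAGCagaaatggg
ztf-7, chrV:9789995-9790019, plus strand: cgaagaacgCGCCAGCaagcgactc
pcn-1, chrIV:4049677-4049701, plus strand: caaaaagtgCGCCAGCagtcgtcct
ddp-1, chrIII:1859731-1859755, minus strand: agagaaatgCGCCAGCaacctctcc
C34C12.8, chrIII:3460251-3460275, plus strand: cgaaaatcaCGCCAGCacgttactg
C34C12.8, chrIII:3460284-3460308, minus strand: caagaaatgCGCCAGCacatgactc
dnj-9, chrII:4851813-4851837, minus strand: ctgaaaaagCGCCAGCataacccct
famh-136, chrIII:8887367-8887391, plus strand: cgagaagtgCGCCAGCttcgcataa
sar-1, chrIV:4513671-4513695, plus strand: cgagaagtgCGCCAGCgtcgggaaa

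The 25 strongest one-directional promoter peaks are named here by the gene of the nearest 5' end. Signal below is the authors' own value for a peak, on a scale that the sources used here do not give, and values per replicate come from the strongest candidate of that replicate that overlaps the peak. The rpl-3 peak, upstream of a gene for a protein of the large ribosomal subunit, had a signal of 715 in replicate 3 and 389 in replicate 4, and 1104 in the pooled list. It ranked first in both replicates, as in the pooled list, and its summit lay 297 bp upstream of the 5' end at chrIII:3867314-3867766. No other member reached a pooled signal above 600.2.

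Next in pooled signal was the peak named by egg-5 (600), which lay beside a spliced leader gene and is described with the small RNA genes, as are the weaker egg-5 summit (400) and the H41C03.3 summit (533). The tos-1 peak (chrV:9344110-9344523) had 404 in replicate 3 and 193 in replicate 4, with its summit 107 bp upstream. The cdc-48.1 peak (chrII:10563430-10563722), before a gene for an ATPase that extracts ubiquitin-marked proteins from complexes and membranes, had 392 and 205 in replicates 3 and 4. The his-37 peak (chrV:9546860-9547173), 84 bp before a histone H4 gene, had 391 and 200.97. These 3 peaks and the cbp-1 peak had pooled signals from 580 to 599, a narrower range than the difference between the replicates at any of them. The cbp-1 peak (chrIII:9765476-9765787), far upstream at 864 bp of the gene for the worm's CBP/p300 histone acetyltransferase, had 387 and 197.

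Then came rpl-35, a further gene of the large ribosomal subunit, with 344 in replicate 3 and 213 in replicate 4. The cox-5A peak, before a gene for a subunit of cytochrome c oxidase, had 329 and 176, and the hsp-1 peak, before the gene for the constitutive cytosolic Hsp70, had 263 and 153. All lay within 450 bp of the 5' end, at 448, 285 and 397 bp for rpl-35, cox-5A and hsp-1. Further down the 25 strongest were ztf-7 (pooled signal 385), mog-4 (370), which encodes an RNA helicase of the sperm-to-oocyte switch, vig-1 (360), eelo-2 (360) and pcn-1 (354), which encodes the sliding clamp of DNA replication. The same set held imb-3 (354), an importin gene, ntl-2 (317), for a subunit of the CCR4-NOT deadenylase complex, and sec-61.G (317), for a subunit of the channel that carries proteins into the endoplasmic reticulum. The other members of the 25 were Y39B6A.43 (390), Y39E4B.6 (370), Y75B12B.11 (339), Y54G11A.2 (336), T02E1.2 (310) and K08F11.1 (301). The K08F11.1 summit was the only member downstream of its nearest 5' end, in intergenic sequence past the end of a short gene.

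All 25 of the strongest members had a signal higher in replicate 3 than in replicate 4. All 25 were also in the top lists of both replicates, that is, they overlapped a peak among the 1929 strongest of each, and their ranks reached 169 at worst in replicate 3 and 202 in replicate 4. These peaks were chosen on a pooled signal that comes from both replicates. High ranks in each follow largely from that choice and are no independent support. The median distance of their summits from the 5' end was 285 bp, beside 282 bp over all 305 members, and 14 of 25 lay within 300 bp.

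Over all 305 members the pooled signal ran from 90.3 to 1104 with a median of 144 and an interquartile range of 109 to 193. The median was 139 over divergent promoter peaks, 131 over distal intergenic peaks and 131 over the whole optimal list. Members had a median signal of 95.7 in replicate 3 (lowest 40.8, highest 715) and 54.5 in replicate 4 (lowest 18.1, highest 389). Replicate 3 gave the higher value at 293 of the 304 members with a candidate in both, with a median ratio of 1.78 between them. The log2 ratio ranged from -0.72 to 2.09 with an SD of 0.44 across members. In the 11 members where replicate 4 was at or above replicate 3, among them pmt-1, riok-3 and cts-1 (named after their values were seen), the pooled signal was between 90.3 and 124, in the lower part of the range. One member, ahcy-1, named for that reason, had no candidate in replicate 4. Across the 304 members Spearman's rho between the replicates was 0.729 and Pearson's r on the log2 scale 0.797. Both are given as a description, since the peaks share 2 libraries and were chosen on the pooled signal of both. Summits that overlap the same candidate carry the same replicate values, so some values enter rho, r and the median ratio more than once.

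**Figure D1:**
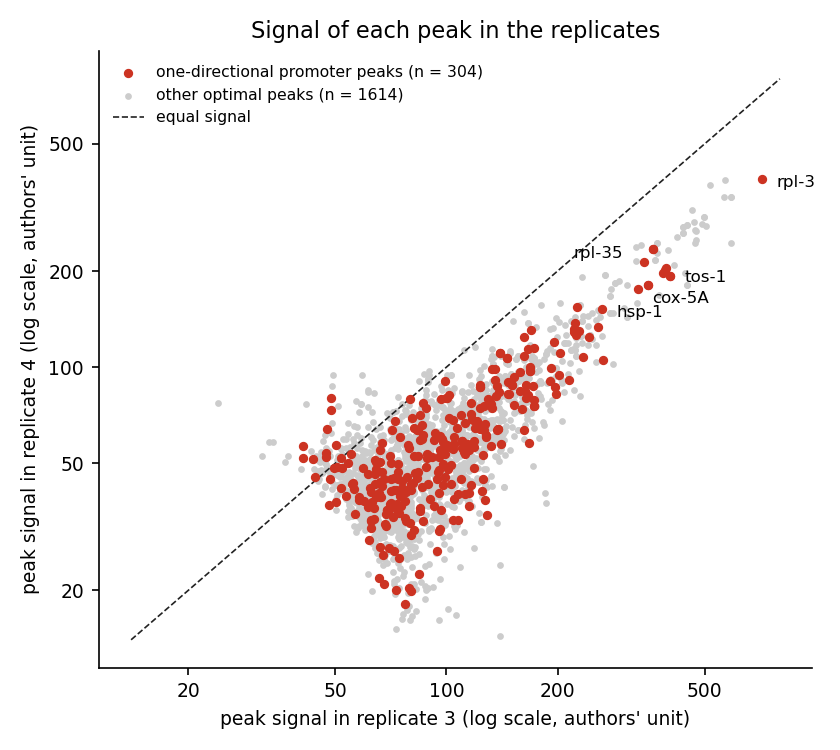
Signal of each optimal peak in replicate 3 (x axis) and replicate 4 (y axis), both on log scales in the authors' unit, with one-directional promoter peaks in red (n = 304) and all other optimal peaks in grey (n = 1614). Most red points, 293 of 304, lie below the dashed line of equal signal, and rpl-3 is the highest of all in both replicates.

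No difference in signal or in support by both replicates passed the test between the members and either other class of optimal peak. Of the members, 224 of 305 (73.4%) were in the top lists of both replicates, against 74.8% of the 135 divergent promoter peaks and 65.1% of the 289 distal intergenic peaks. The odds ratio was 0.931 against divergent peaks (95% interval 0.590 to 1.49, adjusted p = 0.966, two-sided Fisher's exact test) and 1.49 against distal peaks (1.05 to 2.105, adjusted p = 0.0690). Of the members, 177 (58.0%) had a signal above the median of the optimal list, against 80 divergent peaks (59.3%) and 145 distal peaks (50.2%). These shares gave odds ratios of 0.951 (0.632 to 1.44, adjusted p = 0.966) and 1.37 (0.993 to 1.90, adjusted p = 0.110) in the same exact test. Adjustment was by Benjamini-Hochberg over the 17 comparisons of classes described here, and none of these 4 passed 0.05. With an overlap of at least 50% asked for in place of 1 bp, the comparison of replicate support with distal peaks passed (odds ratio 1.53, adjusted p = 0.0495 in Fisher's exact test, with a range of 0.0495 to 0.569 over its 8 alternatives). Peaks were treated as independent units in all p-values and intervals, which therefore hold counting error and leave out how worm cultures vary. Neighbouring summits that overlap the same replicate peak were each counted in its top list.

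The members were denser than distal peaks and sparser than divergent peaks for the sequence open to each class. The rule left 8.54 Mb of one-directional promoter sequence, with 35.7 optimal peaks per Mb. Divergent promoter sequence covered 1.202 Mb and held 112 per Mb, and distal intergenic sequence covered 16.4 Mb and held 17.7 per Mb. Of all pooled candidates in one-directional promoters, 11.5% were in the optimal list, against 22.5% in divergent promoters and 8.07% in distal sequence. Chromosomes I, II, III, IV and V held 52, 78, 53, 50 and 72 members. Per Mb of eligible sequence that came to 40.1, 45.7, 45.1, 29.2 and 27.2, so chromosomes IV and V had the lowest densities. These densities are descriptions and were not tested.

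Nearly all summits lay before the gene, which follows largely from the rule, since the summit had to be intergenic. The median was 282 bp upstream, with an interquartile range of 158 to 521 bp, and 304 of 305 summits were upstream of the nearest 5' end in their window. Downstream lay 1 member (0.328%), against 30 of the 2354 lower-ranked candidates (1.27%) under the same rule. Between 100 and 299 bp lay 124 members (40.7%, exact 95% interval 35.1 to 46.4), against 29.5% of the lower-ranked candidates, whereas 40 members (13.1%) lay under 100 bp, against 19.1%. The range from 100 to 299 bp joins the bins where members lay furthest above the lower-ranked candidates, and it was not tested. The comparison chosen for the test, of summits within 200 bp, showed no difference that passed: 105 of 305 members (34.4%) against 843 of 2354 lower-ranked candidates (35.8%), with an odds ratio of 0.941 (0.734 to 1.21, adjusted p = 0.966, two-sided Fisher's exact test). That test depended on where the line was drawn. In the same exact test the odds ratio within 100 bp was 0.637 (adjusted p = 0.0326) and that within 300 bp was 1.24 (adjusted p = 0.132), with adjusted p between 0.0326 and 1 over the 11 alternatives. Without replicate 3 the odds ratio turned to 1.15.

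**Figure D2:**
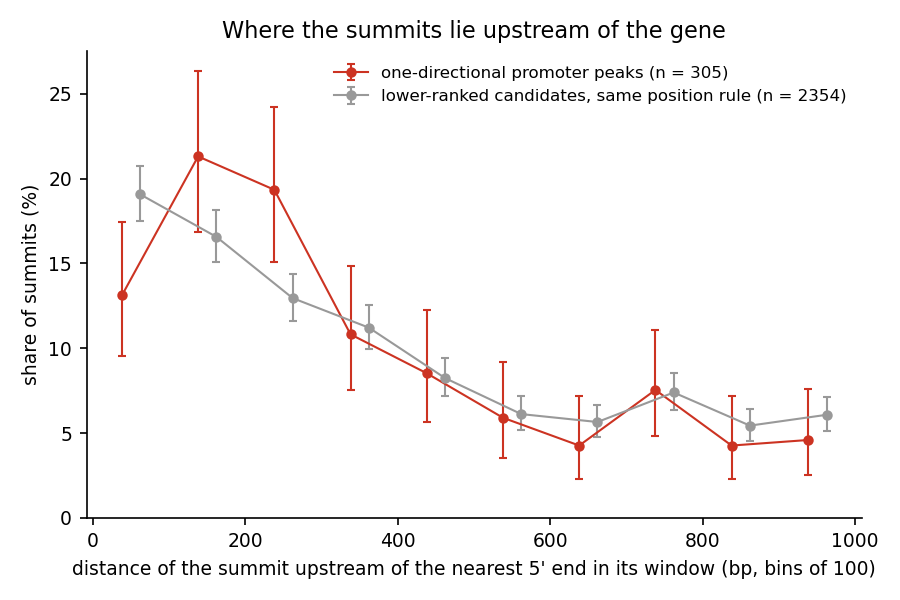
Share of summits (y axis, %) by distance upstream of the nearest 5' end in bins of 100 bp (x axis), for one-directional promoter peaks (red, n = 305) and lower-ranked candidates that meet the same position rule (grey, n = 2354), with exact 95% intervals as bars. The members have 13.1% of their summits in the first bin against 19.1% for the lower-ranked candidates, and lie above them from 100 to 299 bp.

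The genes behind the promoters are described without a test. The nearest annotated gene upstream was a protein-coding gene on the same strand for 162 members (53.1%), one on the opposite strand for 65 (21.3%) and a non-coding gene for 78 (25.6%). The lower-ranked candidates had 55.3%, 19.5% and 25.1%. The intergenic gap that held the summit was 1050 bp long at the median for members and 1354 bp for lower-ranked candidates. An annotated gene lay between summit and 5' end for 22 members (7.21%), against 5.82% of lower-ranked candidates.

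Members served 305 protein-coding genes, a number equal to that of the peaks by coincidence, since 14 windows were shared by a pair of genes and 14 genes had more than a single summit. That was 2.32% of the 13131 autosomal protein-coding genes with sequence in their window that met the rule. The genes with more than one summit included tos-1, with a second summit 315 bp upstream at a signal of 95.9, and lgg-1, with summits at 872 and 168 bp and signals of 155 and 103 (chosen after the values were seen). Some of these summits shared an interval: 8 members lay on 4 intervals, and all members merged into 293 regions.

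A small group of members sat beside genes for small nuclear and nucleolar RNAs. Within 100 bp of such a gene lay 17 members (5.57%, exact 95% interval 3.28 to 8.77), 10 beside snoRNA genes, which guide the modification of ribosomal RNA, and 7 beside snRNA genes, which include the spliced leader genes. None was within 100 bp of a miRNA gene. Of the lower-ranked candidates, 9 of 2354 (0.382%) were this near. Among the members of highest signal this held for 5 of 25. Both summits before egg-5 (600 and 400), a gene of the oocyte-to-embryo transition, lay 20 and 75 bp from the spliced leader gene sls-2.4, on 1 interval with 362 in replicate 3 and 234 in replicate 4. The H41C03.3 summit (533) lay 55 bp from sls-2.1. The Y75B12B.11 and T02E1.2 summits lay 29 and 20 bp from the snoRNA genes Y75B12B.12 and T02E1.9. For these peaks the coding gene that names the member was not the nearest gene. Spliced leader genes have near-identical copies, and the sources used here do not say how reads that match several copies were placed.

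The 18 gene lists are described without a test because they were chosen with results of these data known. The highest shares were those of cytosolic ribosomal protein, autophagy and respiratory chain genes. Of cytosolic ribosomal protein genes with eligible sequence, 8 of 37 (21.6%, exact 95% interval 9.83 to 38.2) had a member peak, beside 2.32% of all eligible genes. After rpl-3 and rpl-35 the strongest were rps-28, a gene of the small subunit, with 172 in replicate 3 and 87.4 in replicate 4, and rps-24 with 146 and 107. The summits of the 8 genes lay between 264 bp (rpl-41.2, named after its value was seen) and 495 bp (rps-24) upstream. Mitochondrial ribosomal protein genes had 2 of 41 (4.88%, 0.596 to 16.5, an interval that includes 2.32%), mrpl-55 and mrpl-15, with pooled signals of 156 and 149.

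Genes of the respiratory chain and ATP synthase had 5 of 31 (16.1%, 5.45 to 33.7). Beside cox-5A these were cox-5B, with 198 in replicate 3 and 82.3 in replicate 4 and a summit 7 bp from the 5' end, cox-6A (88.3 and 74.7), whose summit lay 799 bp from its own 5' end and 27 bp from an snRNA gene, nduf-11 of complex I (73.0 and 41.3) and cyc-1, the cytochrome c1 gene (79.1 and 20.3). Of autophagy genes, 4 of 21 (19.0%, 5.45 to 41.9) had a member peak. Both worm genes for the ubiquitin-like Atg8 proteins that coat the autophagosome were among them, lgg-2 with 131 in replicate 3 and 77.9 in replicate 4, and lgg-1 with 104 and 55.6. The others were atg-9 (115 and 54.8), which encodes a membrane protein that feeds the growing autophagosome, and epg-8 (73.9 and 49.6).

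Genes of membrane trafficking had 7 of 61 (11.5%, 4.74 to 22.2), with sec-61.G, vps-60 (pooled signal 247), vps-22 (136) and sar-1 (131), the GTPase that starts COPII vesicles, at the top. The vps-22 peak, 616 bp upstream, is also the peak of its nearer gene C27F2.9, which lies 65 bp away. Translation factors had 2 of 18, eif-3.C (230) and eif-3.G (91.1), both of the initiation factor eIF3. Chaperones had 2 of 31, hsp-1 and dnj-9 (207). The proteasome had 1 of 11, rpn-11 (190), whose product removes ubiquitin chains, and splicing factors had 1 of 14, snr-4 (167), for a core snRNP protein, whose summit lay 42 bp from an snRNA gene. For these last 4 lists the exact 95% interval of the share included 2.32%.

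The share of nuclear hormone receptor genes lay near the background, while those of the other transcription factor families rest on 1 gene each and have wide intervals. Nuclear hormone receptor genes had 7 of 222 (3.15%, 1.28 to 6.39), with nhr-119 (145), nhr-135 (134), nhr-256 (106) and nhr-57 (105) strongest. Helix-loop-helix genes had 1 of 16 (6.25%, 0.158 to 30.2), hlh-11 (159), and homeobox genes 1 of 45 (2.22%, 0.0562 to 11.8), ceh-20 (107), the worm PBX gene. Collagen and cuticle morphology genes had 2 of 110 (1.82%), col-159 and col-160, which share 1 peak (173).

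Among the remaining lists, the intervals of chemoreceptor and immune effector genes lay below 2.32%. Chemoreceptor genes had 3 of 1086 (0.276%, 0.0570 to 0.805), namely sre-23 (194), srh-17 (173) and srh-76 (90.3), and the sre-23 summit lay 59 bp from a snoRNA gene. In the F-box, MATH and BTB families 3 of 286 genes (1.05%, 0.217 to 3.03, which includes 2.32%) had one, fbxa-83 (167, 48 bp from a snoRNA gene), fbxb-72 (158) and fbxa-202 (154). Immune effector genes had 0 of 211, where 3 counts would make 1.42% and the exact interval reaches 1.73%. The proton pump had 0 of 13 and the tRNA synthetases 0 of 20, where 3 counts would make 23.1% and 15%. Their exact intervals reach 24.7% and 16.8%, so nothing can be read from those small lists. Together, 49 of the 305 genes with a member peak (16.1%) were in any of the 18 lists.

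**Figure D3:**
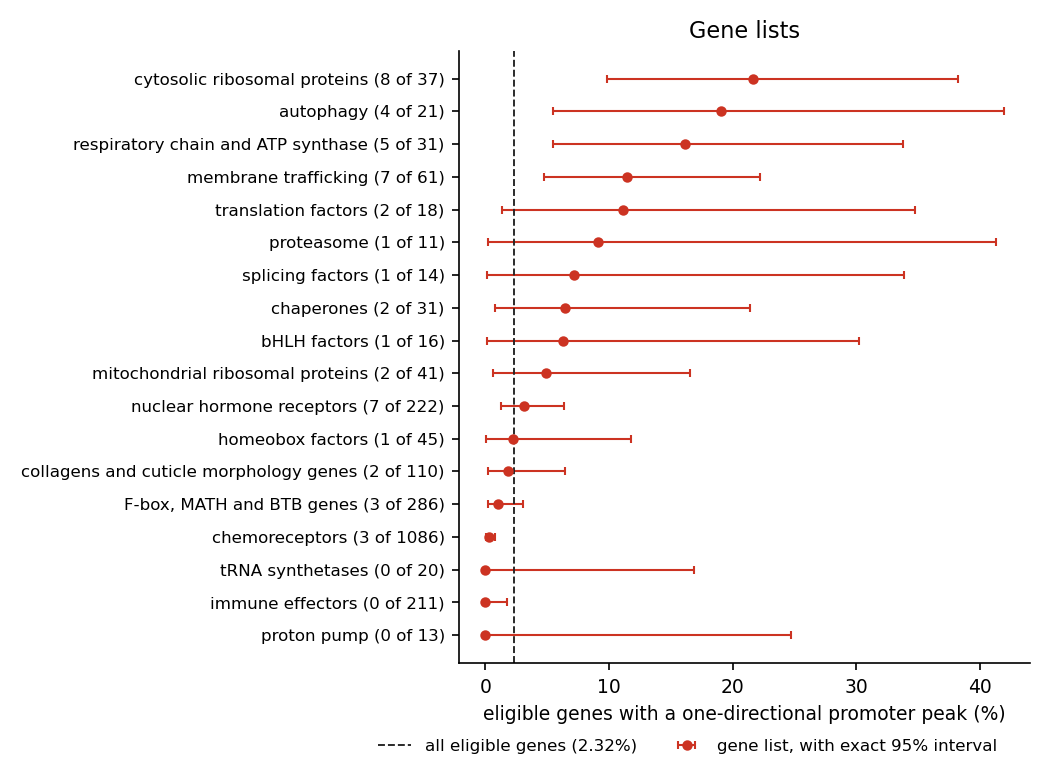
Share of eligible genes with a one-directional promoter peak (x axis, %) in each of 18 gene lists (y axis, with counts), with exact 95% intervals as bars and the share of all 13131 eligible genes, 2.32%, as the dashed line. The intervals of cytosolic ribosomal protein, autophagy, respiratory chain and trafficking genes lie above the line and those of chemoreceptor and immune effector genes below it.

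Group D was more frequent in the members than in distal peaks or lower-ranked candidates. Of the members, 25 of 305 (8.20%, exact 95% interval 5.37 to 11.9) held CGCCAGC within 50 bp of the summit, against 12 of 135 divergent promoter peaks (8.89%), 1 of 289 distal intergenic peaks (0.346%) and 12 of 2354 lower-ranked candidates (0.510%). The odds ratio was 25.7 against distal peaks (3.34 to 91.5, adjusted p = 5.2e-06, two-sided Fisher's exact test) and 17.4 against lower-ranked candidates (8.56 to 33.9, adjusted p = 1.1e-14). Both calls held under all 11 alternatives in which they could be recomputed, with odds ratios of 13.0 to 41.98 and 5.11 to 24.9. The lowest value against lower-ranked candidates came without replicate 3, and without replicate 4 it was 10.7. Against divergent promoter peaks it was 0.915 (0.442 to 1.83, adjusted p = 0.966 in the exact test), an interval that leaves room for a difference in either direction. Of all tiled windows that met the position rule, 0.255% held the word. The 4 word groups were read off an earlier report on these data, so their p-values here and below are no independent support.

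Members with group D included his-37, ztf-7, eelo-2 and pcn-1 among the 25 strongest, and then ddp-1 (pooled signal 287), a gene of the mitochondrial import machinery, C34C12.8 (249) and dnj-9 (207). Further genes were famh-136, fbxl-2, F26F2.7, hrpu-2, ubxn-2, rbm-7, smu-1, eri-5, phm-2, C27F2.9, Y38C1AA.12, sar-1, smr-1, pde-12, tif-1A, wdr-46 and cyc-1. The median signal of the 25 peaks with group D was 161, between 96.2 and 588, beside 142 for the members with none of the 4 word groups. Of the 25, 21 (84.0%) were in the top lists of both replicates, beside 73.1% of the members with none. These comparisons among members were chosen after the values were seen and were not tested.

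Group D occurred in members near the 5' end. All 25 members with it had their summit 16 to 392 bp upstream of the 5' end, with a median of 207 bp, beside 292.5 bp for members without it. Of the 198 members under 400 bp, 25 (12.6%, 8.34 to 18.1) held the word, and of the 107 members beyond, 0. There 3 counts would make 2.80%, and the exact interval reaches 3.39%. The split at 400 bp was chosen after the values were seen. The word occurred 27 times, 11 times on the strand of the gene and 16 times on the other, a share of 40.7% (22.4 to 61.2) on the gene's strand. Beside the word the base just before it was G in 22 of 27 sites and the base just after it A in 21 of 27, as in the pcn-1 and ddp-1 sites printed above. The base at position -9, counted back from the first base of the word, was C in 22 of 27. Since the word was sought and its neighbours then counted, these are counts at chosen sites.

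Groups A and B were more frequent in the members than in lower-ranked candidates, group C was less frequent than in distal peaks, and no difference of these groups from divergent peaks passed. Group A was present in 45 of 305 members (14.8%), against 19 of 135 divergent peaks (14.1%), 46 of 289 distal peaks (15.9%) and 159 of 2354 lower-ranked candidates (6.75%). Against lower-ranked candidates the odds ratio was 2.39 (1.69 to 3.42, adjusted p = 3.3e-05, two-sided Fisher's exact test), a call that held in all 11 alternatives, and against divergent and distal peaks it was 1.06 and 0.914 (adjusted p = 1 and 0.966). The whole stretch TCTGCGTCTC occurred in 24 of the 45 members with group A, which was 7.87% of all members, against 6.67% of divergent peaks, 7.96% of distal peaks and 3.06% of lower-ranked candidates.

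Group B, the CT repeat, was present in 32 members (10.5%), against 9 divergent peaks (6.67%), 48 distal peaks (16.6%) and 131 lower-ranked candidates (5.57%). It was more frequent than in lower-ranked candidates (odds ratio 1.99, 1.34 to 3.01, adjusted p = 0.0087, two-sided Fisher's exact test), but not with promoter windows of 500 bp (1.74, adjusted p = 0.0898) or summit windows of 25 bp on each side (1.47, adjusted p = 0.459, the highest over the 11 alternatives, the lowest being 1.2e-05). Against distal peaks the odds ratio was 0.589 (0.367 to 0.953, adjusted p = 0.0690 in the exact test), which passed with summit windows of 100 bp on each side (0.480) and with summits in no protein-coding gene (0.511). Against divergent peaks it was 1.64 (0.745 to 3.36, adjusted p = 0.373 in the exact test), and without replicate 4 it was 2.92 and passed (adjusted p = 0.0332).

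Group C, the E-box core, was present in 17 members (5.57%), against 7 divergent peaks (5.19%), 33 distal peaks (11.4%) and 68 lower-ranked candidates (2.89%). It was less frequent than in distal peaks (odds ratio 0.458, 0.254 to 0.848, adjusted p = 0.0400, two-sided Fisher's exact test), but this call ended in 7 of 11 alternatives, among them without replicate 3 (0.583, adjusted p = 0.287, within a range of 0.0174 to 0.577 over all alternatives). Against lower-ranked candidates the odds ratio was 1.98 (1.18 to 3.47, adjusted p = 0.0635 in the exact test), which passed without replicate 4 (2.098, adjusted p = 0.0240). Against divergent peaks it was 1.08 (0.431 to 2.51, adjusted p = 1 in the exact test).

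**Figure D4:**
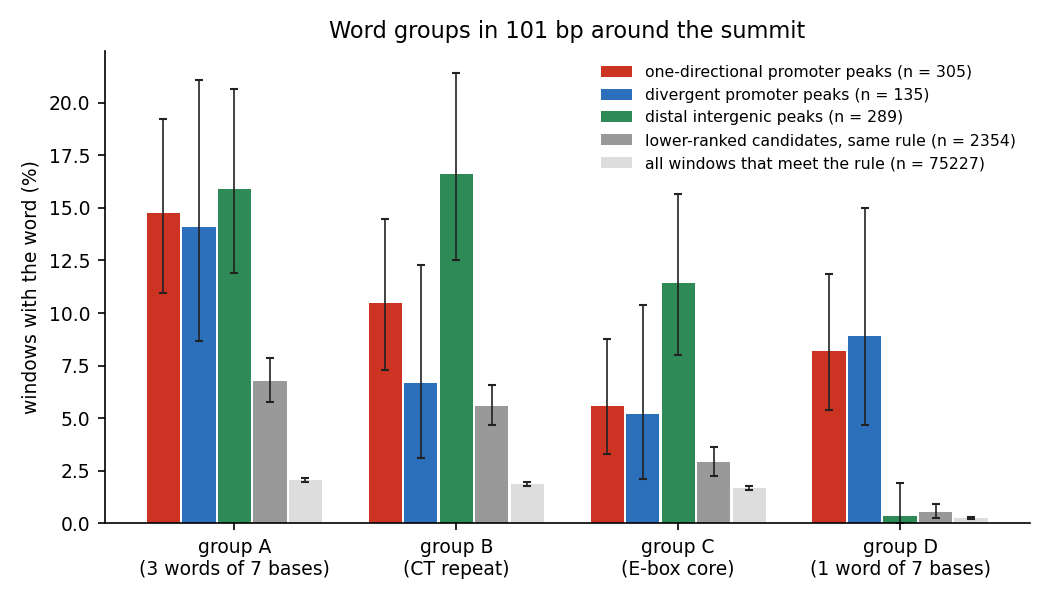
Share of summit windows with each word group (y axis, %), in one-directional promoter peaks (red), divergent promoter peaks (blue), distal intergenic peaks (green), lower-ranked candidates that meet the same rule (grey) and all tiled windows that meet it (light grey), with exact 95% intervals as bars. Group D reaches 8.20% in one-directional and 8.89% in divergent promoter peaks and stays at 0.346% in distal peaks, while groups A, B and C occur in all 3 classes of peak.

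Beyond these groups, all words of 7 bases were compared between the summit and a flank. The summit window held 50 bp on each side, and the flank had the same length, centred 300 bp further upstream of the gene. Flanks were not required to be intergenic or to lie in the promoter window, and 82 members lay in intergenic gaps under 500 bp. Flanks could therefore lie in a neighbouring gene, and the part of this in the word counts was not tested. Of 1586 words tested, 72 (4.54%) were more frequent at the summit and 69 (4.35%) less frequent (McNemar's exact test per word, Benjamini-Hochberg adjusted p under 0.05). With the list of replicate 4 alone, that is without replicate 3, the counts were 38 and 30. Of the 72, 47 contained CG and 15 did not occur in any of the 305 flanks. Of the 69, none contained CG and 28 were made of A and T alone. The word with the lowest p among the more frequent ones was the group D word, CGCCAGC, with 25 windows at the summit and 0 in the flank (adjusted p = 4.7e-05, McNemar's exact test). In 305 flanks 3 counts would make 0.984%, and the exact interval for 0 reaches 1.20%. The word CTGCGTC of group A had 35 against 6 (adjusted p = 0.00047), and CTCTCTC had 32 against 9 (adjusted p = 0.0095) in the same exact test. Since the words of these groups came from an earlier report on these data, their place among the called words is no independent support. A word outside the 4 groups that was singled out after its values were seen, AACGCGC, had 24 against 0 (adjusted p = 6.3e-05, McNemar's exact test), and 9 of its 24 windows also held group D. Its share was 7.87% in members, against 5.19% in divergent peaks, 1.73% in distal peaks and 1.74% in lower-ranked candidates, without a test. Among the less frequent words, AAAATTA had 9 against 44 (adjusted p = 4.7e-05) and AATAATT had 4 against 34 (adjusted p = 0.00024) in the exact test. Overlapping words share sites and are not independent.

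Base composition moved with these words. The windows at member summits had a median GC content of 46.5%, against 33.7% in the upstream flank and 36.6% in the downstream flank, while divergent peaks had 48.5%, distal peaks 43.6% and lower-ranked candidates 38.6%. The flanks could include sequence of genes, whereas the summits were intergenic. The part of GC content in the word counts was not tested.

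In the plot of word sites against the 5' end, group D sites had a median position 174 bp upstream, with an interquartile range of 126.5 to 283 bp. Sites of the group A word CTGCGTC, the group B word CTCTCTC and the group C word CACGTG had medians of 221, 211 and 204 bp, and upper quartiles of 440.25, 544 and 300 bp. Within the window, 17 of 27 group D sites lay within 20 bp of the summit, beside 20 of 31 for the group A word ACGCAGA, 23 of 36 for CTGCGTC, 21 of 36 for GAGACGC, 10 of 17 for the group C word CACGTG and 17 of 69 for the group B word CTCTCTC. These counts were not tested against each other. Site counts are not counts of promoters, since repeats give several sites in a window. The group A word CTGCGTC was on the strand of the gene at 23 sites and on the other at 13, a share of 63.9% whose interval, 46.2 to 79.2, included equal shares. GAGACGC, which reads the other strand of the same stretch, was on the strand of the gene at 11 sites and on the other at 25 (30.6%, 16.3 to 48.1). ACGCAGA, which reads that same strand, had 9 and 22 (29.0%, 14.2 to 48.0). Both of these intervals left out equal shares. The words of group A overlap, so their counts are not independent.

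**Figure D5:**
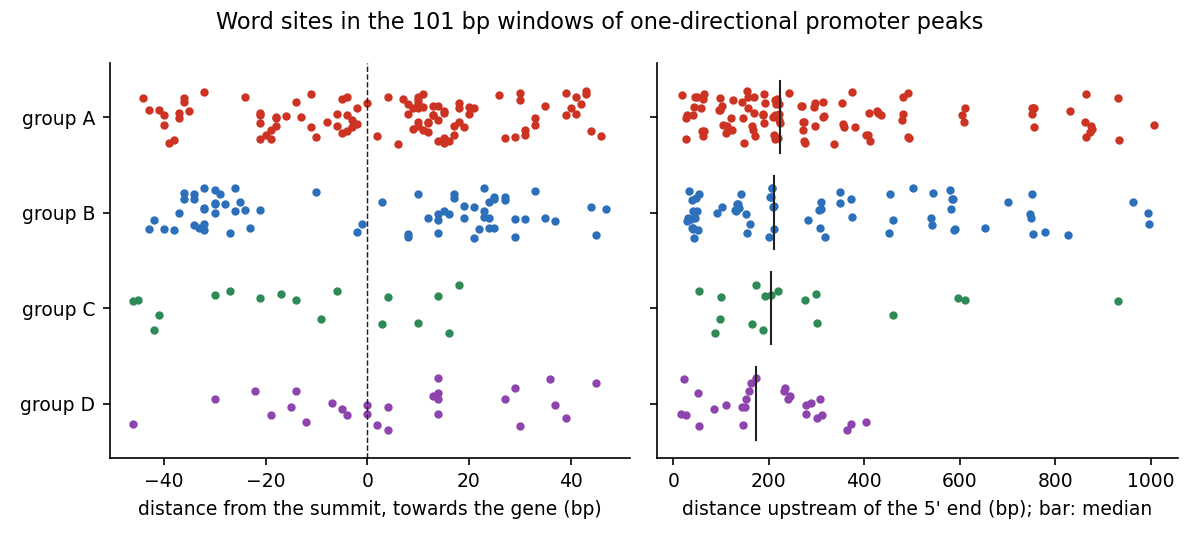
Each point is a word site in the summit window of a one-directional promoter peak, by word group (y axis), placed by its distance from the summit towards the gene (left x axis, bp) and by its distance upstream of the 5' end (right x axis, bp), with medians as bars. Group D sites stop near 400 bp, while sites of groups A and B run to the end of the window. Group C sites reach 931 bp, but their upper quartile is 300 bp.

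Peaks at the edges of the rule were as follows. The member farthest upstream was that of lin-23, at 987 bp with a signal of 102, and the first peak beyond 1000 bp was that of mstr-1, at 1022 bp with a signal of 261. The member nearest to a tRNA gene was that of Y54G2A.45, at 112 bp with a signal of 121, and the first one left out for a tRNA gene, that of clec-126, lay at 45 bp with a signal of 280. The weakest member was srh-76 at 90.3, and the strongest lower-ranked candidate that met the position rule was Y75B12B.3 at 90.0.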

How the data were processed

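The authors called candidate peaks on ce11 for each replicate and for both together, against a control alignment, per the list of files they deposited, and derived the optimal list by irreproducible discovery rate. The sources used here do not name the aligner, the peak caller or the threshold. A deposited peak carries a signal, on the authors' own scale, a summit offset, and a −log10 q-value, which is the same, 3.63, for all optimal peaks and was not used. No columns of samples were left out (0).

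Summits were placed on the WBcel235 annotation of Ensembl release 115. Classes were set against each other with Fisher's exact test, two-sided (scipy 1.17.1), over 17 comparisons, and words by McNemar's exact test over 7-mers found in at least 10 windows, both with Benjamini-Hochberg adjustment. Shares have exact Clopper-Pearson intervals at 95%. A count of 0 is given with the share that 3 counts would make, which lies somewhat below the upper end of the exact interval. In simulated windows a word planted in 6% of 305 windows was recovered in 65% of 20 simulations and one planted in 10% in 100%, with a mean of 0 and 0.05 other words called. Words shifted by a single base from the planted word were left out of these means, but not out of the counts of called words above. Both sets of simulated windows were drawn at random, unpaired, from the same eligible sequence. They did not differ in base composition as the real summit and flank windows did (median GC 46.5% and 33.7%). The simulation therefore cannot show how many words that difference alone would call.

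Members and lists were chosen with earlier results of these data known. The text names the 25 members of highest signal, up to 4 genes of each list the peaks at each threshold and the members whose sequence is shown, and any other name is marked. Members with group D are named, since the group's sites are described one by one, except 1 that is not reported here by name. Alternatives changed the list, the replicates, the promoter window, the rules on tRNA genes and intergenic sequence, merging, overlap, word windows, flanks and the distance tested. Coordinates are on ce11 and 1-based.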

Additional observations from a re-analysis of the deposited data

How the results depend on the processing

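Over 16 alternatives, 148 of 175 recomputed class comparisons kept their direction and their side of 0.05. In the following, values are odds ratios unless named as counts or bp. In the stronger part of the optimal list, above its median signal, there were 177 members serving 182 genes, with 36 words more and 26 less frequent. There the odds ratio of replicate support against divergent peaks turned to 1.11, those of groups C and D to 0.624 and 1.15, and that of group C against distal peaks was 0.374 (Fisher's exact test, adjusted p = 0.0584). Lists of 1 replicate gave ranges of 38 to 82 words more and 30 to 79 less frequent, and a median distance of 285 to 292 bp. Odds ratios ranged from 0.966 to 1.15 for summits within 200 bp, 0.889 to 1.01 for group A against distal peaks, 1.23 to 2.92 for group B against divergent peaks, and 0.965 to 1.23, 0.486 to 0.583 and 1.95 to 2.098 for group C against divergent peaks, distal peaks and lower-ranked candidates. Promoter windows of 500 bp gave 1.08 for group A against distal peaks, 1.74 for group B against lower-ranked candidates, 0.565 for group C against distal peaks and a median distance of 203 bp. Windows of 2000 bp gave 0.865 for group A against divergent peaks, 0.761 and 2.90 for group C against distal peaks and lower-ranked candidates, and a median of 460 bp. Summits in no protein-coding gene gave 0.511 for group B against distal peaks. A distance of 300 bp from tRNA genes, or none, gave 0.474 and 0.466 for group C against distal peaks. Merged regions gave a median of 265.5 bp, and 50% overlap gave 1.53 for replicate support against distal peaks. Summit windows of 25 bp on each side gave 1.11 for group A against distal peaks, 1.47 for group B against lower-ranked candidates, 0.599 for group C against distal peaks, and 18 words more and 19 less frequent. Windows of 100 bp on each side gave 0.480 for group B against distal peaks and 1.88 for group C against lower-ranked candidates. The downstream flank gave 38 less frequent words. The distance test gave 0.637 within 100 bp and 1.24 within 300 bp. The cause of these changes was not tested, beyond the fewer peaks or bases that some settings hold. Members above the median signal gave no value for the comparison by that median, and lists of 1 replicate gave none for support by both. No paired analysis was possible because the replicates form 1 group. With no counts in the files, depth cannot be weighed.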
